A study of Mus musculus with 35 samples.

Results

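The quantity described here is the diet by genotype interaction in mouse aorta after 22 weeks of feeding. It is the effect of Western diet (WD) against chow in apolipoprotein E knockout (EKO) mice minus the same effect in wild-type (WT) mice, per gene on log2(value + 1), where a value is the deposited normalised signal of a gene in a library. The members are 12 of the 35 libraries of the series, 3 in each of EKO WD, EKO chow, WT WD and WT chow at 22 weeks, and all 14157 genes that passed a filter on low values were fitted. A positive interaction means that WD raised a gene more, or lowered it less, in EKO than in WT.

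Total RNA of whole aortas, dissected from the root down to where the iliac arteries branch and stripped of periadventitial fat, was sequenced. All mice carried the C57BL/6 strain label, started their diet (4RF21 chow or the Western diet TD.88137) at the same age and were 30 weeks old in the 22-week groups and 14 weeks old in the 6-week groups, which hold the same 4 combinations of genotype and diet with 3 libraries each. EKO mice lack Apoe in every tissue, and the remaining libraries of the series come from EKO mice that overexpress human apoA-I (EKO/hA-I). Those entered the fit only through the shared estimate of spread.

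Apolipoprotein E clears lipoprotein remnants from blood, and mice without it develop atherosclerosis that a cholesterol-rich diet speeds up. In a plaque, macrophages take up modified lipoprotein, digest it in lysosomes and store the cholesterol as ester, while smooth muscle cells lose contractile genes and lay down matrix. Wild-type mice of this strain stay largely free of plaque on either diet, so the interaction asks which effects of the diet depend on the loss of Apoe.

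Apoe itself measured 29.7, 21.9 and 21.2 in EKO WD and 19.5, 11.2 and 15.8 in EKO chow, against 764, 804 and 540.4 in WT WD and 697, 659.8 and 439.7 in WT chow. Every EKO library was below every WT library, and the interaction of Apoe was 0.39 ± 0.44 (SE, adjusted p = 0.65). The library WT WD replicate 3 carries an EKO genotype tag and a WT title, was kept as WT by its title, and has the WT level of Apoe. The reads behind the 12 libraries, inferred from the step between low values, numbered 7763768 to 21292111. Y-linked transcripts were absent in 1 of 3 EKO WD, 2 of 3 EKO chow, 1 of 3 WT WD and 1 of 3 WT chow libraries. Whether each library is 1 animal is not given in the labels. The p-values measure the spread between libraries within groups, estimated over all 35 libraries of the series.

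Other tissues were present in uneven amounts. The mean level of the adipocyte list, on log2(value + 1), was 8.10 to 8.29 in EKO WD and 9.0 to 9.33 in EKO chow, against 7.81 to 8.56 in WT WD and 7.95 to 9.08 in WT chow. Cardiac genes stood at 7.27 in WT chow replicate 1 and at 1.96 to 4.99 in the other 11 libraries. Skeletal muscle genes were at 1.40 to 3.08 in EKO WD, 1.82 to 4.15 in EKO chow, 1.76 to 4.98 in WT WD and 0.92 to 2.02 in WT chow. In such bulk samples fewer cells of a type and less RNA per cell cannot be told apart. With terms for brown fat, skeletal muscle, cardiac and nerve genes in the fit, 576 genes had an interaction, 466 of them among the 879 called without these terms.

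**Figure D1:**
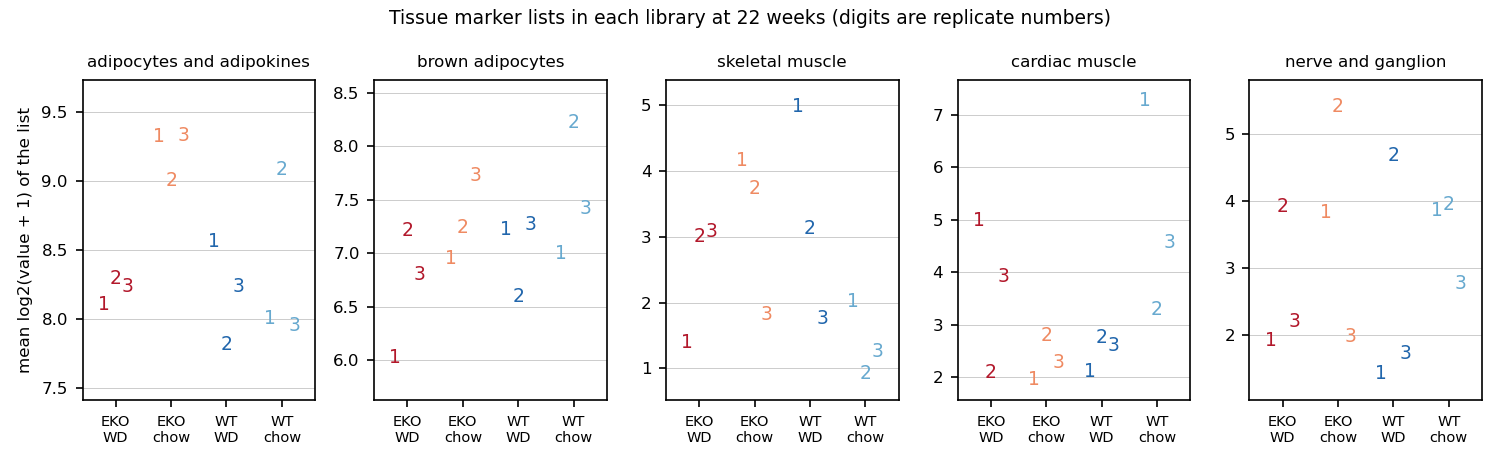
Mean log2(value + 1) of 5 marker lists in each library at 22 weeks, by group, with replicate numbers as symbols. Adipocyte genes are at 9.0 or above in the 3 EKO chow libraries and in 1 WT chow library, and cardiac genes are highest in WT chow replicate 1, at 7.27.

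An interaction passed the threshold (limma, Benjamini-Hochberg adjusted p below 0.05, two-sided) in 879 of 14157 genes, 6.21% of those tested. It was positive in 707 genes (4.99%) and negative in 172 genes (1.21%). Without WT WD replicate 3, the library with conflicting genotype labels, 732 genes passed, 644 of them among the 879. The diet effect alone passed in 2644 genes in EKO (18.7%), 1964 higher (13.9%) and 680 lower (4.8%) on WD, and in 193 genes in WT (1.36%), 131 higher (0.925%) and 62 lower (0.438%). In the fit of the compared groups alone 0 genes passed in WT with limma (1254 unadjusted), so each WT diet effect called below, those of Atp6v0b, Ccl11, Lep, Gdf10 and Lrrc15 included, was lost there. The median interaction over all genes was 0.03 on the log2 scale, so changes are read against a value close to 0. Counts of list members below are read against the shares of all genes given here.

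Positive and negative interactions differed in the calls and medians of their diet effects. Of the 707 positive genes, 636 rose on WD in EKO with no call in WT, 4 rose in EKO and fell in WT, 10 fell in WT with no call in EKO, and 57 passed in neither genotype alone. All 3 EKO WD libraries lay above the other 9 libraries in 526 of the 707 genes, against 12.3% of all genes tested. The rule for the interaction uses these same libraries, so both counts describe the calls. The median of the 707 genes was 1.00 for the diet effect in EKO, -0.08 for that in WT, 0.07 for EKO over WT on chow and 1.17 for EKO over WT on WD.

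By the signs of the estimates, crossings were the larger part of both sets. In 425 of the 707 positive genes the estimated diet effect was above 0 in EKO and at or below 0 in WT. Both estimates were above 0 in 280 of the 707. In 158 of the 172 negative genes the estimated diet effect was below 0 in EKO and above 0 in WT, and both effects passed in 9. Sorted by calls, those 9 aside, 68 fell in EKO with no call in WT, 42 rose in WT with no call in EKO, and 53 passed in neither. Their medians were -0.59 for the diet effect in EKO, 0.73 for that in WT, 0.57 for EKO over WT on chow and -0.73 for EKO over WT on WD. The highest group mean was WT WD in 103 of them and EKO chow in 65, and the lowest was EKO WD in 89 and WT chow in 82. All 3 EKO WD libraries lay below the other 9 in 33 of the 172, against 2.76% of all genes. On the linear scale the interaction had the same sign as on the log scale in all 879 called genes.

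**Figure D2:**
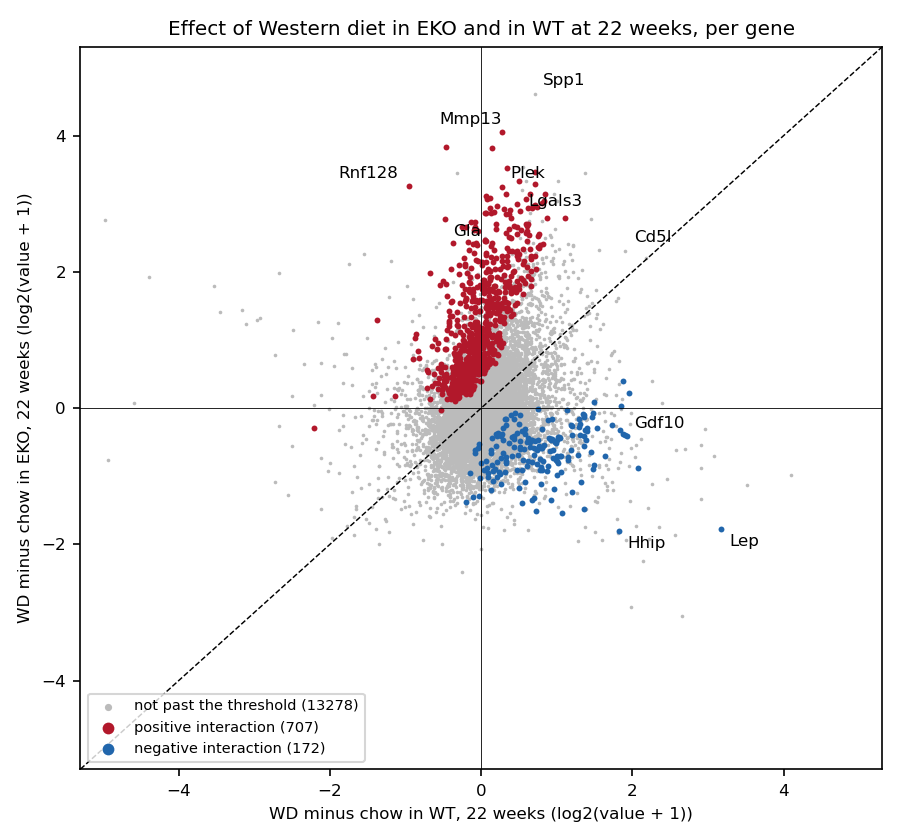
Effect of WD against chow in EKO (vertical) and in WT (horizontal) at 22 weeks for 14157 genes, in log2 units, with genes past the interaction threshold in colour and equal effects on the dashed line. The 707 positive genes form a column over a WT effect near 0, and the 172 negative genes lie mostly where the EKO effect is negative and the WT effect positive.

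Several of the largest positive interactions belonged to leukocyte and macrophage genes. Plek, which encodes the leukocyte and platelet signalling protein pleckstrin, measured 449, 274 and 432 in EKO WD and 44.1, 30.6 and 42.5 in EKO chow, against 14.8, 20.03 and 14.3 in WT WD and 13.5, 21.8 and 7.72 in WT chow. The 3 EKO WD libraries stood several-fold above EKO chow, and the WT groups overlapped. Its interaction was 2.98 ± 0.47 (SE, adjusted p = 0.00032), made of 3.25 ± 0.33 in EKO and 0.27 ± 0.33 in WT. Rnf128, an E3 ubiquitin ligase known from T cell unresponsiveness, had the largest positive interaction of the genes named by size, 4.21 ± 0.75 (SE, adjusted p = 0.001). It measured 87.6, 56.2 and 93.3 in EKO WD and 7.82, 6.18 and 7.69 in EKO chow, against 0.655, 2.78 and 0.652 in WT WD and 9.23, 2.54 and 1.09 in WT chow. WT WD and WT chow overlapped, with WT chow replicate 1 the highest of the WT libraries.

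Several receptors and lectins of lipid-laden macrophages followed the same course. Msr1, the class A scavenger receptor that takes up modified lipoprotein, measured 121, 95.4 and 132 in EKO WD and 11.7, 11.5 and 13.3 in EKO chow, against 3.54, 5.95 and 3.37 in WT WD and 4.68, 4.53 and 1.22 in WT chow. Its interaction was 2.82 ± 0.57 (SE, adjusted p = 0.0029). Lgals3, the lectin galectin-3, measured 1189, 754 and 1092 in EKO WD and 131, 103 and 116 in EKO chow, against 12.4, 37.8 and 14.8 in WT WD and 22.3, 17.1 and 14.1 in WT chow, with WT WD replicate 2 highest among WT libraries. Its interaction was 2.97 ± 0.70 (SE, adjusted p = 0.01). Itgax, the integrin CD11c of dendritic cells and macrophages, measured 344, 268 and 512 in EKO WD and 36.5, 24.9 and 31.3 in EKO chow, against 3.28, 8.86 and 1.63 in WT WD and 3.16, 4.05 and 1.604 in WT chow. EKO chow already stood above every WT library for Itgax and Lgals3, and EKO WD stood above EKO chow. The Itgax interaction was 3.18 ± 0.79 (SE, adjusted p = 0.014). Ms4a6d, a tetraspan membrane protein of myeloid cells, had 2.53 ± 0.54 (SE, adjusted p = 0.0045), and the metalloprotease Adam8 had 2.82 ± 0.57 (SE, adjusted p = 0.0031). Il1rn, the secreted antagonist of the interleukin-1 receptor, had 2.99 ± 0.73 (SE, adjusted p = 0.013), a call lost at a pseudocount of 0.1.

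Lilr4b and Lilrb4a, paired inhibitory receptors of myeloid cells, had interactions of 2.76 ± 0.63 and 2.59 ± 0.61 (SE, adjusted p = 0.0077 and 0.0096). Their sequences are close, so reads may be shared between them. Cdk18, a cyclin-dependent kinase of the PCTAIRE group, measured 57.6, 63.6 and 91.9 in EKO WD and 12.02, 10.2 and 14.5 in EKO chow, against 2.42, 3.71 and 3.48 in WT WD and 5.38, 5.42 and 2.82 in WT chow. The estimate of its diet effect was 2.43 ± 0.31 in EKO and -0.37 ± 0.31 in WT, and its interaction was 2.80 ± 0.44 (SE, adjusted p = 0.00032). Galnt6, an enzyme that starts O-linked glycosylation, had 2.65 ± 0.58 (SE, adjusted p = 0.006). Mt2, a metallothionein that binds zinc, was different in shape: it measured 83.7, 92.7 and 89.8 in EKO WD and 19.6, 33.4 and 69.1 in EKO chow, against 10.02, 17.3 and 13.8 in WT WD and 28.1, 42.5 and 40.5 in WT chow. WD lay high in EKO and low in WT, neither diet effect passed alone (1.29 ± 0.46 and -1.38 ± 0.46, adjusted p = 0.051 and 0.12), and the interaction was 2.66 ± 0.65 (SE, adjusted p = 0.013).

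Thbs1, the matricellular protein thrombospondin 1, measured 1413, 855 and 1171 in EKO WD and 167, 101 and 81.2 in EKO chow, against 36.1, 61.97 and 26.4 in WT WD and 38.1, 26.6 and 19.9 in WT chow, and its interaction was 2.83 ± 0.71 (SE, adjusted p = 0.016). The call was lost without EKO WD replicate 1. Anxa8, a calcium-dependent phospholipid-binding annexin, had 2.73 ± 0.69 (SE, adjusted p = 0.015), a call lost without EKO WD replicate 1 or WT chow replicate 1. With the 4 tissue terms in the fit the calls of Itgax, Il1rn, Lgals3, Thbs1, Lilr4b, Anxa8 and Galnt6 were also lost, while those of Rnf128, Plek, Adam8, Msr1, Cdk18, Mt2, Lilrb4a and Ms4a6d were kept in every alternative and omission run.

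**Figure D3:**
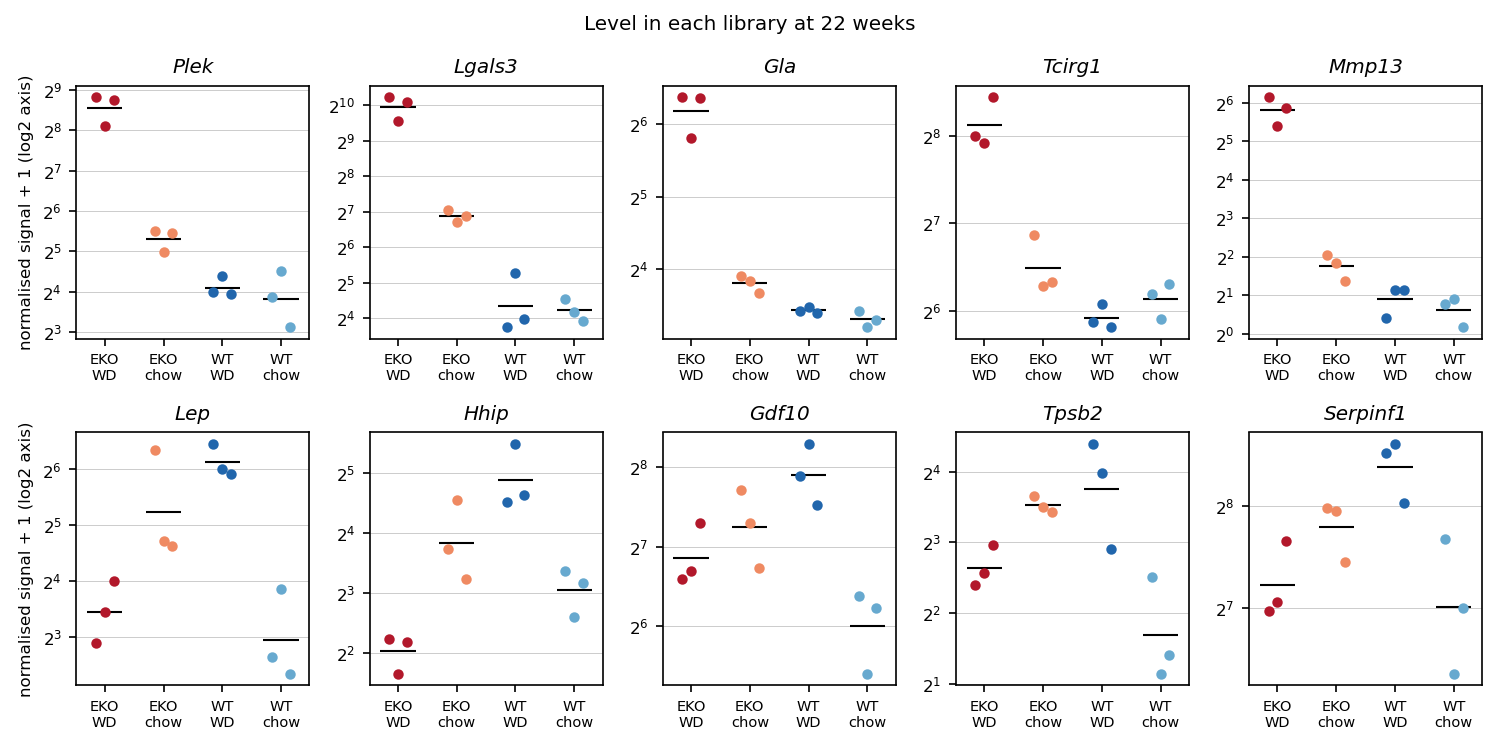
Normalised signal + 1 on a log2 axis in each of the 12 libraries (points) with the group mean on the log2 scale (lines), for 10 genes. Plek, Lgals3, Gla, Tcirg1 and Mmp13 are highest in EKO WD, while Lep, Hhip, Gdf10, Tpsb2 and Serpinf1 have group means that are lower on WD than on chow in EKO and higher on WD than on chow in WT.

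Of 20 general macrophage markers measured, 2 had a positive interaction, set against 4.99% of all genes, Fcgr3, an Fc receptor for immunoglobulin G, with 1.52 ± 0.45 (SE, adjusted p = 0.041) and Ms4a7, a membrane protein of mature macrophages, with 2.28 ± 0.63 (SE, adjusted p = 0.029). Both calls were lost with 7 or more of the 12 libraries left out 1 at a time, and the median interaction of the list was 1.15. The WD effect passed upward in 17 of the 20 in EKO and in 1, Csf1r, in WT, against 13.9% and 0.925% of all genes. Csf1r, the receptor for the macrophage growth factor CSF1, measured 243, 254 and 298 in EKO WD and 172, 78.2 and 105 in EKO chow, against 87.05, 88.97 and 50.7 in WT WD and 37.99, 40.02 and 21.8 in WT chow. It was raised by WD in both genotypes, 1.23 ± 0.28 in EKO and 1.16 ± 0.28 in WT (adjusted p = 0.003 and 0.038, the WT call lost in the fit of the compared groups alone), and its interaction was 0.07 ± 0.40 (SE, adjusted p = 0.94). Adgre1, which encodes the F4/80 antigen, had 1.04 ± 0.58 (SE, adjusted p = 0.31), and C1qa, a chain of complement C1q, had 1.26 ± 0.45 (SE, adjusted p = 0.094). The mean level of the macrophage list was 6.94 to 7.11 in EKO WD and 5.03 to 5.98 in EKO chow, against 4.13 to 4.81 in WT WD and 3.27 to 4.21 in WT chow.

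Of 20 foamy macrophage genes, 7 had a positive interaction and 0 a negative one, with a median of 1.58. They were Msr1, Lgals3, Itgax, the cathepsin genes Ctsb and Ctsd, the fatty acid carrier Fabp5, whose call was lost without any of 9 single libraries, and Soat1, which esterifies cholesterol for storage. Soat1 measured 144, 90.8 and 139 in EKO WD and 27.8, 26.9 and 21.2 in EKO chow, against 22.3, 23.7 and 17.7 in WT WD and 17.04, 8.97 and 14.1 in WT chow, with an interaction of 1.57 ± 0.37 (SE, adjusted p = 0.01), lost with the 4 tissue terms. Several of the best known genes of this list had large estimates and large errors. Spp1, which encodes osteopontin, measured 11160, 6934 and 10720 in EKO WD and 572, 354 and 278 in EKO chow, against 3.14, 249.5 and 40.95 in WT WD and 49.6, 17.2 and 9.75 in WT chow. WT WD replicate 2 was far above the other WT libraries, and the interaction of 3.90 ± 1.75 (SE, adjusted p = 0.2) did not pass. Trem2, a lipid-sensing receptor, had 2.08 ± 0.84 (SE, adjusted p = 0.15), Gpnmb, a lysosomal glycoprotein, had 2.07 ± 1.10 (SE, adjusted p = 0.29), and Mmp12, the macrophage elastase, had 2.74 ± 1.15 (SE, adjusted p = 0.16). Cd5l, a secreted survival factor of macrophages, measured 1252, 1349 and 2155 in EKO WD and 334, 362 and 246 in EKO chow, against 2.69, 39.9 and 8.15 in WT WD and 2.104, 5.08 and 0.385 in WT chow. Its interaction was 0.40 ± 1.48 (SE, adjusted p = 0.91), since the estimated diet effects were close, 2.31 ± 1.05 in EKO and 1.91 ± 1.05 in WT, neither of which passed.

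Of 12 LXR target and efflux genes, 2 had a positive interaction (median 0.55). Abcg1, which exports cholesterol to lipoprotein, had 1.61 ± 0.48 (SE, adjusted p = 0.045) and Arl4c, a small GTPase, had 1.79 ± 0.48 (SE, adjusted p = 0.024). Both calls were lost when any of several single libraries was left out and in the fit of the compared groups alone, where 0 of the 12 passed. Of 20 genes of sterol synthesis and LDL uptake 0 passed (3 at an unadjusted p below 0.05), with 2 estimates above 0 and a median of -0.59. Of 15 fatty acid synthesis genes 0 passed (0 unadjusted), with 1 estimate above 0 and a median of -0.84.

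Of 40 lysosomal hydrolases and membrane proteins, 16 had a positive interaction and 0 a negative one, and 35 estimates were above 0 (median 0.70). Gla, the lysosomal alpha-galactosidase that trims glycolipids, measured 81.4, 54.95 and 81.01 in EKO WD and 14.02, 13.2 and 11.8 in EKO chow, against 9.76, 10.2 and 9.53 in WT WD and 9.69, 8.204 and 8.89 in WT chow. The EKO WD libraries stood apart while the other 9 libraries lay close together, and the interaction was 2.24 ± 0.27 (SE, adjusted p = 4.2e-05). Gusb, the hydrolase beta-glucuronidase, measured 490, 443 and 581 in EKO WD and 114, 87.2 and 106 in EKO chow, against 67.6, 69.2 and 61.8 in WT WD and 47.8, 40.9 and 56.4 in WT chow. It had 1.83 ± 0.30 (SE, adjusted p = 0.00042). Neu1, the lysosomal sialidase, measured 66.4, 65.5 and 76.95 in EKO WD and 44.6, 37.98 and 41.2 in EKO chow, against 34.8, 29.4 and 28.3 in WT WD and 36.8, 35.9 and 40.8 in WT chow. Its interaction was smaller but tight, 1.03 ± 0.15 (SE, adjusted p = 0.00029). Psap, whose product is cut into the activators of sphingolipid breakdown, had 1.43 ± 0.27 (SE, adjusted p = 0.0014).

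Of 14 cathepsins measured, most of them proteases of the lysosome, 6 had a positive interaction and 1 a negative one (median 1.03). Ctsl measured 3771, 2496 and 5187 in EKO WD and 597, 589.7 and 554 in EKO chow, against 328, 412 and 263 in WT WD and 269, 208 and 233 in WT chow. It had 2.18 ± 0.34 (SE, adjusted p = 0.00032), Ctsb had 1.61 ± 0.28 (SE, adjusted p = 0.00073), Ctsd had 1.49 ± 0.28 (SE, adjusted p = 0.0014) and Ctsz had 1.24 ± 0.30 (SE, adjusted p = 0.013). Ctsk, the collagen-degrading member, had 1.68 ± 0.49 (SE, adjusted p = 0.039), a call lost without any of 8 of the libraries. Ctss, which trims the MHC class II chaperone, measured 1722, 1028 and 1892 in EKO WD and 195, 125 and 132 in EKO chow, against 26.98, 70.5 and 25.3 in WT WD and 23.4, 28.6 and 7.89 in WT chow. Its interaction of 2.32 ± 0.78 (SE, adjusted p = 0.078) did not pass. Ctsf ran the other way with -0.55 ± 0.15 (SE, adjusted p = 0.023), a call lost without any of 5 of the libraries.

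The V-ATPase, the pump that acidifies the lysosome, had 10 of 18 subunit genes with a positive interaction and 0 with a negative one, and all 18 estimates were above 0 (median 0.83). The median diet effect over the 18 genes of the pump was 0.57 in EKO and -0.2 in WT, where 3 estimates were above 0. Tcirg1, a subunit of its membrane part, measured 254, 241 and 345 in EKO WD and 116, 77.04 and 79.9 in EKO chow, against 57.96, 66.8 and 55.5 in WT WD and 72.1, 59.04 and 78.3 in WT chow. Its interaction was 1.83 ± 0.28 (SE, adjusted p = 0.00029). Atp6v0b, another membrane subunit, measured 154, 150 and 176 in EKO WD and 111, 120 and 109 in EKO chow, against 86.8, 85.5 and 96.1 in WT WD and 135, 131 and 148 in WT chow. Here WD was higher than chow in EKO and lower than chow in WT with no overlap in either, both diet effects passed (0.49 ± 0.11 and -0.62 ± 0.11, adjusted p = 0.0032 and 0.01), and the interaction was 1.11 ± 0.16 (SE, adjusted p = 0.00023). The cytosolic subunit genes Atp6v1g1 and Atp6v1c1 had 0.81 ± 0.15 and 1.05 ± 0.22 (SE, adjusted p = 0.0013 and 0.0047). In the fit of the compared groups alone the counts were 6 of 40 lysosomal genes, 2 of 14 cathepsins and 5 of 18 V-ATPase genes, with Psap, Ctsd and Ctsz among the calls lost. Without EKO WD replicate 3 the V-ATPase count was 6.

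Promoter windows of 3 of these genes, of the kinase gene Cdk18 and of the protease gene Mmp13 are shown because they hold motifs looked for in all windows. Each is 300 bases from RefSeq (GRCm38.p6), on the strand of the gene, from 250 bases before to 50 bases after the annotated start. Capitals mark CACGTG, the core of the sites bound by the lysosomal gene regulators of the MiT/TFE family, TGAGTCA, the AP-1 site, and GAGGAAG, a PU.1-like site, each searched on both strands. Gla lies at chrX:134600956-134601255, minus strand, Ctsl at chr13:64370471-64370770, minus strand, Atp6v0b at chr4:117887280-117887579, minus strand, Cdk18 at chr1:132139636-132139935, minus strand, and Mmp13 at chr9:7272264-7272563, plus strand.
Gla: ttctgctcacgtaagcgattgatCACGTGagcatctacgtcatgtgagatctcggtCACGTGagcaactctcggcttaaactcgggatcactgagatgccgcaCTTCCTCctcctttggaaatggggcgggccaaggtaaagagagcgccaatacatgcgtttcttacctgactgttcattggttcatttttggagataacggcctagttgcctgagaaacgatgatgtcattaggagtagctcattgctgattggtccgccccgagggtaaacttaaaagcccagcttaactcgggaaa
Ctsl: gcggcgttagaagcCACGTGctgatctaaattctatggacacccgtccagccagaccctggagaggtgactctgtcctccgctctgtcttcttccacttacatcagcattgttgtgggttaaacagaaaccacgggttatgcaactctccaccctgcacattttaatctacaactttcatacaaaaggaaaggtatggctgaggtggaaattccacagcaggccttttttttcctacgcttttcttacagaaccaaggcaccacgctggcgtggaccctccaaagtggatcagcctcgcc
Atp6v0b: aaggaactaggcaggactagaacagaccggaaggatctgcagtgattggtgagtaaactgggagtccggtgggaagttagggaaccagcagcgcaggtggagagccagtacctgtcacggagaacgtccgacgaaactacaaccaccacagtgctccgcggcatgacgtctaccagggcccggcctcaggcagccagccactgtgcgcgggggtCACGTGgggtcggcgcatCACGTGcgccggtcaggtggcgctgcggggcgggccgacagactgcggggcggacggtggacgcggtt
Cdk18: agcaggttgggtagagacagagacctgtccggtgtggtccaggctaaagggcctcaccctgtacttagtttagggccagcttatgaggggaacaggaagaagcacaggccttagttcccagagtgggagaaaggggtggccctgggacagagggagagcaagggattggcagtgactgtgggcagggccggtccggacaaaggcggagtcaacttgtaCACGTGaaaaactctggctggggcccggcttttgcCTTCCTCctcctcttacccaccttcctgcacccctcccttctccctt
Mmp13: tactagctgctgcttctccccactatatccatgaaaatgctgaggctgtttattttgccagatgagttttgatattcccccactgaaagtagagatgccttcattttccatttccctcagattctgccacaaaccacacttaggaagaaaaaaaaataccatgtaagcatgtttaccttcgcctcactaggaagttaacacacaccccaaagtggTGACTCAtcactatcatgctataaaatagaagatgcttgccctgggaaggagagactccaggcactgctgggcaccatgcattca

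Gla and Atp6v0b each hold CACGTG at a pair of places, Ctsl and Cdk18 at 1, and Mmp13 holds the AP-1 letters, on the opposite strand. A window was given for 10750 of the 14157 symbols. CACGTG occurred in 11.2% of these genes, in 15.2% of the positive interaction genes (81 of 534) and in 8.33% of the negative ones (11 of 132). Among the lysosomal, cathepsin and V-ATPase genes it occurred in 29.2% of those with a positive interaction (7 of 24) and in 29.6% of all measured members (16 of 54), so the called members held it about as often as all members did. TGAGTCA occurred in 4.84% of all genes, 9.18% of the positive and 7.58% of the negative ones, and GAGGAAG in 16.2%, 20.2% and 13.6%. A match is a run of letters and not a bound site, and these shares are a description without a test.

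Sphingolipid synthesis and signalling genes, named in the title of the series, had 5 of 26 with a positive interaction and 0 with a negative one (median 0.34). Sphk1, the kinase that makes sphingosine 1-phosphate, measured 20.2, 15.9 and 15.9 in EKO WD and 4.68, 3.69 and 4.39 in EKO chow, against 2.096, 3.55 and 2.61 in WT WD and 5.38, 1.99 and 7.19 in WT chow. It had 2.34 ± 0.47 (SE, adjusted p = 0.0027). Acer3, an alkaline ceramidase, had 1.13 ± 0.21 (SE, adjusted p = 0.0013). Sptlc2, a subunit of the enzyme that starts sphingolipid synthesis, measured 92.04, 74.8 and 86.2 in EKO WD and 43.5, 40.2 and 48.1 in EKO chow, against 37.3, 43.6 and 40.4 in WT WD and 42.3, 41.1 and 30.7 in WT chow. Its interaction was 0.83 ± 0.17 (SE, adjusted p = 0.0035). Ugcg, which makes glucosylceramide, and Cerk, ceramide kinase, had 0.91 ± 0.21 and 1.25 ± 0.30 (SE, adjusted p = 0.0087 and 0.012). In the fit of the compared groups alone Sphk1 and Acer3 passed and the other 3 did not. Asah1, the acid ceramidase of the lysosome, had 1.05 ± 0.20 (SE, adjusted p = 0.0017).

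Of 39 chemokine, cytokine and adhesion genes measured, 12 had a positive interaction and 1 a negative one (median 1.13). Cxcl16, a membrane-bound chemokine that also binds oxidised lipoprotein, measured 199, 194 and 223 in EKO WD and 40.8, 31.6 and 22.2 in EKO chow, against 15.4, 19.8 and 12.3 in WT WD and 13.9, 9.36 and 7.74 in WT chow. Its interaction was 2.12 ± 0.43 (SE, adjusted p = 0.0031). Il6, an inflammatory cytokine, measured 2.69, 11.9 and 4.97 in EKO WD and 0.134, 0.377 and 0.1997 in EKO chow, against 0, 0.109 and 0.109 in WT WD and 0.351, 0 and 0.128 in WT chow. Its levels outside EKO WD were near the floor of the data, and the interaction of 2.52 ± 0.62 (SE, adjusted p = 0.013) is on log2(value + 1), which understates changes of low genes. Ccl2, the monocyte chemokine MCP-1, measured 22.1, 32.9 and 24.4 in EKO WD and 5.81, 3.69 and 3.29 in EKO chow, against 1.44, 3.16 and 0.652 in WT WD and 2.69, 2.21 and 0.578 in WT chow, with 2.45 ± 0.60 (SE, adjusted p = 0.013). Tgfb1, a growth factor that drives matrix production, had 1.31 ± 0.32 (SE, adjusted p = 0.013). The calls of Ccl2 and of the monocyte chemokines Ccl3 and Ccl4 were lost at a pseudocount of 0.1, where 4 of the list passed upward. Those of Cxcl1, Cxcl5, Ccl7, Vcam1 and Sele were lost without any of 7 or more single libraries.

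Ccl11, the eosinophil chemokine eotaxin, ran the other way. It measured 27.97, 18.2 and 26.6 in EKO WD and 34.1, 24.9 and 19.97 in EKO chow, against 27.6, 24.1 and 23.4 in WT WD and 8.53, 12.03 and 7.25 in WT chow. WT chow was the low group, and WD raised Ccl11 in WT (1.37 ± 0.25 (SE, adjusted p = 0.0087)) with an estimate of -0.10 ± 0.25 in EKO. Its interaction was -1.47 ± 0.35 (SE, adjusted p = 0.011), lost with the 4 tissue terms.

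Matrix-degrading and matrix-building genes were also among the positive ones. Of 21 matrix proteases and inhibitors 7 had a positive interaction and 0 a negative one (median 0.93). Mmp13, a collagenase, measured 69.7, 41.6 and 57.2 in EKO WD and 3.14, 2.56 and 1.598 in EKO chow, against 0.328, 1.2 and 1.195 in WT WD and 0.701, 0.884 and 0.128 in WT chow. It was near the floor in WT and at most 3.14 in EKO chow, and its interaction was 3.78 ± 0.65 (SE, adjusted p = 0.00075). Mmp14, the membrane-bound activator of other metalloproteases, measured 426, 414 and 536 in EKO WD and 98.2, 99.2 and 107 in EKO chow, against 101, 109.6 and 90.3 in WT WD and 112, 38.8 and 111 in WT chow. It had 1.81 ± 0.48 (SE, adjusted p = 0.021), a call lost without WT chow replicate 1, WT chow replicate 3 or EKO WD replicate 3. Plau, the urokinase-type plasminogen activator, had 1.32 ± 0.30 (SE, adjusted p = 0.0089), lost in the fit of the compared groups alone, and its receptor gene Plaur 1.40 ± 0.36 (SE, adjusted p = 0.018), the last a call lost without EKO WD replicate 1, WT WD replicate 1 or WT chow replicate 1.

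Among 20 genes of modulated smooth muscle and cartilage-like cells 5 had a positive interaction and 0 a negative one (median 1.15). Col2a1, the collagen of cartilage, measured 44.7, 17.01 and 46.6 in EKO WD and 0.668, 6.48 and 0.0998 in EKO chow, against 0.0655, 0.6 and 0.434 in WT WD and 1.64, 0.442 and 0.706 in WT chow. EKO chow replicate 2 was the highest library outside EKO WD, and the interaction was 4.30 ± 0.99 (SE, adjusted p = 0.0088). Cemip, which binds and breaks down hyaluronan, measured 74.9, 41.9 and 87.9 in EKO WD and 7.48, 3.62 and 1.598 in EKO chow, against 0.0655, 0.709 and 0 in WT WD and 0.234, 0.111 and 0 in WT chow. It had 3.69 ± 0.57 (SE, adjusted p = 0.00029), lost at a pseudocount of 0.1. Chad, the cartilage protein chondroadherin, had 1.96 ± 0.48 (SE, adjusted p = 0.013), lost in the fit of the compared groups alone and with the 4 tissue terms. With the 4 tissue terms in the fit 2 members of this list passed, and the call of Col2a1 was lost.

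Of 19 collagens 4 had a positive interaction and 1 a negative one (median 0.81). Col8a1, a short-chain collagen of vessel walls, measured 341, 193 and 238 in EKO WD and 32.1, 36.9 and 32.6 in EKO chow, against 24.8, 24.2 and 14.2 in WT WD and 22.4, 19.8 and 9.34 in WT chow. Its interaction was 2.53 ± 0.51 (SE, adjusted p = 0.0029). Col8a2, the partner chain, ran the other way: it measured 2.82, 2.88 and 3.099 in EKO WD and 5.01, 4.52 and 3.89 in EKO chow, against 8.52, 9.87 and 6.19 in WT WD and 3.27, 1.77 and 2.503 in WT chow. WT WD was the high group, and the interaction was -1.86 ± 0.47 (SE, adjusted p = 0.016). The calls of Col3a1 and Col4a1 were lost without any of 6 or more single libraries, and 1 collagen passed upward in the fit of the compared groups alone. Of 25 elastic fibre and matricellular genes 4 had a positive interaction (median 0.30). Ltbp2, a microfibril protein, had 2.21 ± 0.51 (SE, adjusted p = 0.0094) and Loxl2, a lysyl oxidase that cross-links collagen and elastin, had 1.74 ± 0.37 (SE, adjusted p = 0.0047). Contractile smooth muscle genes had 0 of 18 past the test (1 unadjusted), with 5 estimates above 0 and a median of -0.60. With terms for adipocytes and for libraries without Y-linked transcripts, a fit added after the data were seen, 12 of the 18 passed downward and the median was -1.62. Myh11, the smooth muscle myosin heavy chain, measured 2327, 1493 and 2151 in EKO WD and 2524, 3898 and 3309 in EKO chow, against 4134, 7844 and 7208 in WT WD and 4526, 2168 and 9973 in WT chow. Its libraries overlapped between diets within WT, and its interaction was -1.13 ± 0.70 (SE, adjusted p = 0.37).

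Lep headed the negative side. Lep, the adipocyte hormone leptin, measured 6.49, 9.91 and 15.1 in EKO WD and 80.97, 25.2 and 23.8 in EKO chow, against 86.8, 63.2 and 59.4 in WT WD and 5.26, 13.5 and 4.11 in WT chow. WD libraries were below chow libraries in EKO and above chow libraries in WT, with no overlap in either genotype. The diet effect was -1.78 ± 0.63 (SE, adjusted p = 0.048) in EKO and 3.17 ± 0.63 (SE, adjusted p = 0.012) in WT, and the interaction was -4.95 ± 0.89 (SE, adjusted p = 0.001). The other 14 genes of the adipocyte list had no call. Adipoq, the adipocyte hormone adiponectin, measured 339, 373 and 304 in EKO WD and 746, 659 and 886 in EKO chow, against 368, 230.1 and 322 in WT WD and 266, 661 and 233 in WT chow, with an interaction of -0.97 ± 0.56 (SE, adjusted p = 0.34). Plin1, which coats the adipocyte lipid droplet, had -1.23 ± 0.50 (SE, adjusted p = 0.15). The median interaction of the adipocyte list was -0.70 and 6 of its 15 members fell on WD in EKO, against 4.8% of all genes. In a fit with a term for the adipocyte list and 1 for libraries without Y-linked transcripts, added after the data were seen, the Lep call was kept.

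Hhip, which binds hedgehog proteins and blocks their signal, measured 3.73, 2.17 and 3.58 in EKO WD and 12.4, 22.3 and 8.39 in EKO chow, against 21.7, 43.5 and 23.9 in WT WD and 9.35, 5.08 and 8.02 in WT chow. EKO WD lay below every other library and WT WD above every WT chow library, and the interaction was -3.63 ± 0.68 (SE, adjusted p = 0.0016). Sphkap, an anchoring protein for protein kinase A, had -2.84 ± 0.70 (SE, adjusted p = 0.013). Gdf10, a TGF-beta family member also called BMP3b, measured 95.3, 102 and 156 in EKO WD and 209, 157 and 105 in EKO chow, against 236, 313 and 183 in WT WD and 81.7, 41.1 and 73.7 in WT chow. It rose on WD in WT (1.91 ± 0.32 (SE, adjusted p = 0.0067)), the estimate in EKO was -0.39 ± 0.32, and the interaction was -2.30 ± 0.46 (SE, adjusted p = 0.0027). Lrrc15, a membrane protein of activated fibroblasts, passed in both genotypes with opposite signs, -1.08 ± 0.33 in EKO and 1.31 ± 0.33 in WT (adjusted p = 0.024 and 0.044), and had -2.39 ± 0.47 (SE, adjusted p = 0.0024). Gpc3, a heparan sulfate proteoglycan, had -2.38 ± 0.49 (SE, adjusted p = 0.0032), a call lost in the fit of the compared groups alone. Inmt, a methyltransferase of small amines, had -2.28 ± 0.51 (SE, adjusted p = 0.0074).

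Retnla, an alternative-activation product of macrophages and adipose tissue, measured 38.99, 17.2 and 41.7 in EKO WD and 234, 46.5 and 68.5 in EKO chow, against 61.04, 56.1 and 38.5 in WT WD and 27.2, 36.3 and 13.2 in WT chow. EKO chow replicate 1 was the highest library, and the interaction of -2.62 ± 0.62 (SE, adjusted p = 0.01) was lost in the fit of the compared groups alone and with the 4 tissue terms. Slc25a48, a mitochondrial carrier, had -2.44 ± 0.71 (SE, adjusted p = 0.037), a call lost without any of 7 of the libraries.

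Mast cell proteases had negative interactions. Of 7 mast cell markers measured, 3 had a negative interaction and 0 a positive one (median -2.09). Tpsb2, the beta tryptase, measured 4.26, 4.92 and 6.84 in EKO WD and 11.6, 10.3 and 9.79 in EKO chow, against 19.98, 14.8 and 6.52 in WT WD and 4.68, 1.22 and 1.67 in WT chow. WT chow had the lowest mean, and the interaction was -2.96 ± 0.53 (SE, adjusted p = 0.00099). Mcpt4, a chymase, measured 6.09, 5.82 and 9.14 in EKO WD and 13.4, 12.7 and 9.79 in EKO chow, against 23.7, 15.9 and 7.81 in WT WD and 5.96, 4.53 and 2.18 in WT chow, with -2.34 ± 0.50 (SE, adjusted p = 0.0049), and Cpa3, the mast cell carboxypeptidase, had -2.16 ± 0.53 (SE, adjusted p = 0.013). All 3 rose on WD in WT, calls that were lost in the fit of the compared groups alone, and none passed in EKO. The interaction call of Cpa3 was lost with the 4 tissue terms. With genes averaging under 10 removed, 2 markers were left and 0 passed.

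Of 12 adventitial fibroblast markers 3 had a negative interaction and 0 a positive one, and 11 estimates were below 0 (median -1.23). Serpinf1, which encodes the antiangiogenic protein PEDF, measured 125, 132 and 201 in EKO WD and 250, 247 and 174 in EKO chow, against 363, 387 and 259 in WT WD and 204, 81.5 and 128 in WT chow. It had -1.92 ± 0.43 (SE, adjusted p = 0.007). Gsn, the actin-severing protein gelsolin, measured 1505, 1466 and 1773 in EKO WD and 3412, 2980 and 2286 in EKO chow, against 3769, 3048 and 1993 in WT WD and 2347, 984 and 1581 in WT chow. It had -1.74 ± 0.36 (SE, adjusted p = 0.0034). Clec3b, the plasminogen-binding protein tetranectin, had -1.68 ± 0.43 (SE, adjusted p = 0.016), a call lost without EKO chow replicate 1. In the fit of the compared groups alone 0 of the 12 passed, and without WT chow replicate 1 the count was 7.

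Marker levels of further tissues stand beside the negative calls. T cell markers had a mean level of 2.32 to 2.39 in EKO WD and 1.83 to 3.52 in EKO chow, against 0.89 to 5.11 in WT WD and 0.56 to 2.22 in WT chow, with 0 of 11 past the test (2 unadjusted) and a median interaction of -2.41. Without WT WD replicate 3, 3 of the 11 passed downward and the median was -3.72, and without WT WD replicate 1 it was -1.39. Erythroid genes were at 6.89 to 7.33 in EKO WD and 7.25 to 8.24 in EKO chow, against 6.35 to 7.77 in WT WD and 5.20 to 5.68 in WT chow, with 0 of 6 past the test (6 unadjusted) and a median of -2.43. In the fit of the compared groups alone 3 of the 6 passed downward, as did 2 with the replicate block, with the brown fat term or without WT WD replicate 1. Skeletal muscle genes had 0 of 14 past the test (2 unadjusted) and a median of -3.35, and cardiac genes 0 of 11 (9 unadjusted) and a median of 4.18. Without EKO WD replicate 2, 5 cardiac genes passed upward. No fit held a term for blood or lymphocyte genes, so the part of these cells in the negative calls was not tested. That of muscle content was not tested beyond the fits with tissue terms.

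**Figure D4:**
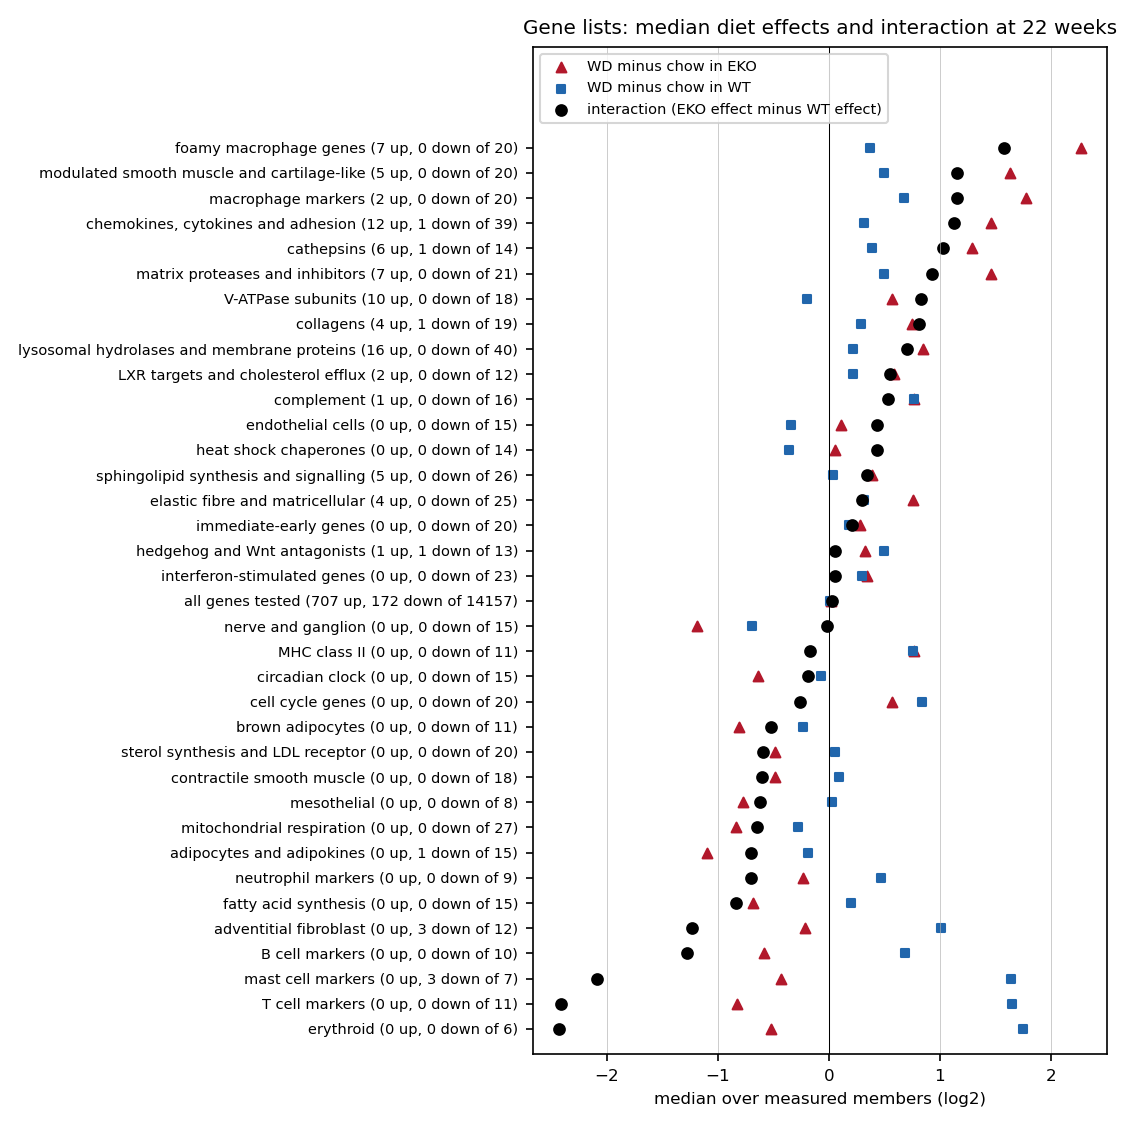
Median over measured members of the diet effect in EKO (triangles), the diet effect in WT (squares) and the interaction (circles), in log2 units, for 35 gene lists and for all genes tested, leaving out cardiac and skeletal muscle. The counts beside each name are members past the interaction threshold. Foamy macrophage genes have the highest median interaction shown, 1.58, and erythroid and T cell genes the lowest, -2.43 and -2.41.

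Further immune lists and the cell cycle had 0 genes past the test with limma. MHC class II genes had 0 of 11 (1 unadjusted, median -0.17) and interferon-stimulated genes 0 of 23 (0 unadjusted, median 0.06). B cell markers had 0 of 10 (0 unadjusted, median -1.28), neutrophil markers 0 of 9 (1 unadjusted, median -0.70) and cell cycle genes 0 of 20 (1 unadjusted, median -0.26). H2-Ab1, a class II chain, measured 222, 290.2 and 305 in EKO WD and 367, 146 and 82.9 in EKO chow, against 78.5, 61.6 and 45.1 in WT WD and 36.9, 48.6 and 23.9 in WT chow. The estimated diet effects were alike, 0.71 ± 0.39 in EKO and 0.76 ± 0.39 in WT, neither past the test, and the interaction was -0.05 ± 0.55 (SE, adjusted p = 0.97). C3ar1, the receptor for complement fragment C3a, was the 1 of 16 complement genes called, a count near the 6.21% of all genes called. It had 2.20 ± 0.59 (SE, adjusted p = 0.023), and lost the call without any of 6 single libraries. Mitochondrial respiration had 0 of 27 past the test (2 unadjusted), with 0 estimates above 0 and a median of -0.65. With the brown fat term 8 passed downward (5 with brown fat and skeletal muscle terms), and with the adipocyte and Y terms 0 passed (0 unadjusted) and the median was 0.09. The diet effect on that list passed downward for 10 members in EKO and 0 in WT, against 4.8% and 0.438% of all genes. The adipocyte list lay lower in EKO WD than in EKO chow, as given above.

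The same interaction after 6 weeks passed in 0 of 14157 genes (0.0%) with limma, and 1529 genes had an unadjusted p below 0.05, against 2946 at 22 weeks. Leaving out EKO chow at 6 weeks replicate 2 gave 1 gene. The interaction at 22 weeks minus that at 6 weeks, a test of the difference itself, passed in 676 genes (4.78%), 472 higher (3.33%) and 204 lower (1.44%) at 22 weeks. It passed with the same sign in 277 of the 707 positive genes and in 108 of the 172 negative ones. The difference contains the 22-week interaction that chose these genes, so these 2 counts are a description. The libraries of both durations are separate, so the sign at 6 weeks is not fixed by the choice at 22 weeks. It was the same as at 22 weeks in 375 of the 707 positive genes, 21 of the 172 negative genes and 5584 of all 14157 genes. The 6-week estimate was above 0 in 7498 of all 14157 genes (53.0%), the share against which the 375 of 707 are read.

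Gla measured 14.9 ± 5.77 in EKO WD and 10.5 ± 1.06 in EKO chow at 6 weeks, against 8.57 ± 1.48 in WT WD and 9.11 ± 0.926 in WT chow (SD, n = 3 each). Its interaction was 0.50 ± 0.27 at 6 weeks, and the difference between 22 and 6 weeks was 1.75 ± 0.39 (SE, adjusted p = 0.014). Ctsl measured 485 ± 188 in EKO WD and 410 ± 60.1 in EKO chow at 6 weeks, against 255 ± 61.6 in WT WD and 237 ± 16.6 in WT chow (SD, n = 3 each), and its difference was 2.07 ± 0.49 (SE, adjusted p = 0.017). For Plek the 6-week values were 31.5 ± 14.1 in EKO WD and 14.6 ± 2.35 in EKO chow, against 15.8 ± 5.97 in WT WD and 16 ± 4.85 in WT chow (SD, n = 3 each). Its interaction was 1.03 ± 0.47 at 6 weeks, and the difference of 1.95 ± 0.66 (SE, adjusted p = 0.082) did not pass.

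The estimate for Atp6v0b had opposite signs at the 22- and 6-week times. At 6 weeks it measured 106 ± 8.99 in EKO WD and 88.5 ± 14.2 in EKO chow, against 147 ± 8.08 in WT WD and 104 ± 13 in WT chow (SD, n = 3 each). The interaction was -0.24 ± 0.16 at 6 weeks, and the difference was 1.36 ± 0.23 (SE, adjusted p = 0.0027). Mmp13 had 3.31 ± 0.93 (SE, adjusted p = 0.038), Col8a1 2.51 ± 0.72 (SE, adjusted p = 0.043), Loxl2 1.97 ± 0.52 (SE, adjusted p = 0.03) and Cemip 3.07 ± 0.81 (SE, adjusted p = 0.029). Of the 25 genes named by the size of their interaction, 9 differed between durations, all of them negative at 22 weeks, a direction favoured by that choice. The 15 positive ones had estimates from -0.09 (Thbs1) to 1.86 (Il1rn) at 6 weeks, and none of their differences passed.

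**Figure D5:**
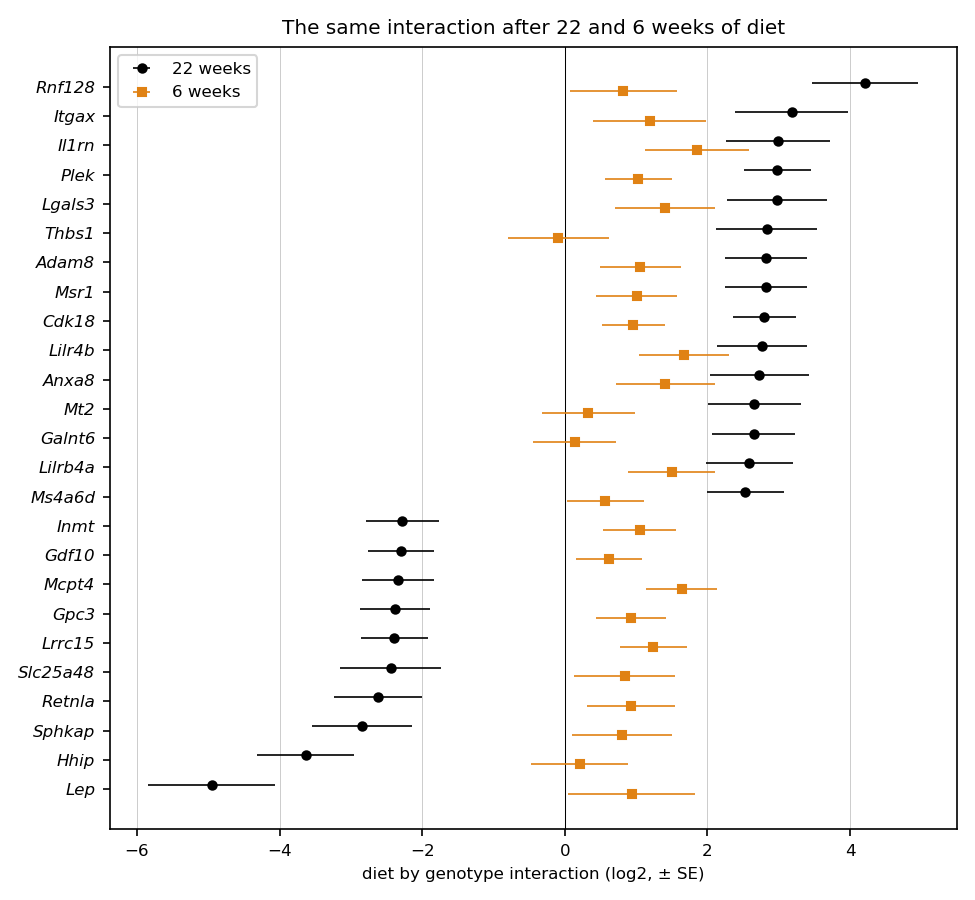
Diet by genotype interaction in log2 units (points) with its SE (bars) at 22 and at 6 weeks for the 25 genes named by size. These are the 15 largest positive and 10 largest negative interactions among called genes with a mean log2 value of at least 3. All 10 negative genes at 22 weeks have estimates above 0 at 6 weeks, and 14 of the 15 positive genes have estimates above 0 at 6 weeks.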

How the data were processed

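RNA-seq of mouse aorta was deposited by the authors as 1 table of normalised signal, genes by libraries. Bowtie 0.12.2, Bowtie2 and RSEM and the builds mm8 and mm9 are named in the submitters' processing notes, without role or order. How values were normalised is not given in the sources used here. Columns of the 12 libraries sum to between 907492 and 1137740. Low values lay within 0.02 reads of whole reads for 72.7 to 80.2% per library, so counts were not recovered and no count test was run. Read totals are inferred from that step.

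The fit used limma 3.58.1 in R 4.3.3 (robust, with a trend) on log2(value + 1), all 35 libraries and 12 groups together, after 17 genes that failed to reach 1 in 3 or more libraries were dropped, leaving 14157. The fit was tested on simulated data in which libraries varied independently. Its error rate with correlated libraries was not tested. Gene lists (37, with 630 of 652 entries measured) and the interaction itself were chosen with earlier results of these data known. Named genes are Apoe, the 15 largest positive and 10 largest negative interactions with a mean log2 value of at least 3, and up to 4 members of smallest p per list. Other genes named were chosen after their values were seen. Among them were Spp1, Cd5l, Trem2, Gpnmb, Mmp12, Csf1r, H2-Ab1, Myh11, Adipoq, Plin1, Ctss, Ctsk and Ctsf. Further ones were Fabp5, Asah1, Il6, Ccl2, Fnip2, Cd44, Tpm4, the Arp2/3 genes, Plaur and Col8a2. Genes are given by symbol alone. Of the 879 called genes, 23 with symbols of predicted genes, pseudogenes, receptor segments, dates or duplicates were not named.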

Additional observations from a re-analysis of the deposited data

Results flagged for a closer look

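The interaction differed between 22 and 6 weeks in 676 genes by a test of the difference itself (limma, Benjamini-Hochberg adjusted p below 0.05). Of the 676, 472 were higher and 204 lower at 22 weeks. Among the 25 genes named by the size of their interaction, all with a mean log2 value of at least 3, 9 did so. Each of the 9 was more negative at 22 weeks. Genes of lower level with large interactions, such as Mmp13 and Cemip, are outside the 25. The difference contains the 22-week interaction by which the 25 were chosen, so its direction is favoured by that choice. The difference was -5.89 ± 1.26 (SE, adjusted p = 0.011) for Lep, -3.98 ± 0.71 (SE, adjusted p = 0.0033) for Mcpt4 and -3.84 ± 0.96 (SE, adjusted p = 0.023) for Hhip. It was -3.64 ± 0.98 (SE, adjusted p = 0.032) for Sphkap, -3.63 ± 0.67 (SE, adjusted p = 0.0043) for Lrrc15 and -3.55 ± 0.88 (SE, adjusted p = 0.021) for Retnla. It was -3.33 ± 0.72 (SE, adjusted p = 0.013) for Inmt, -3.31 ± 0.69 (SE, adjusted p = 0.0094) for Gpc3 and -2.92 ± 0.65 (SE, adjusted p = 0.014) for Gdf10. Lep at 6 weeks measured 3.32 ± 0.742 in EKO WD and 13.8 ± 12.9 in EKO chow, against 7.94 ± 5.59 in WT WD and 45.6 ± 34.1 in WT chow (SD, n = 3 each), so WT WD lay below WT chow at 6 weeks and above it at 22 weeks. Groups of 3 libraries are too small for the rule on samples far from their group, which was not run.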

How the results depend on the processing

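The signs of the 879 interactions at 22 weeks were kept in every alternative run. Their number was 361 with the compared groups alone in the fit (341 of the 879 among them), 1613 with a brown fat term, 576 with 4 tissue terms and 2427 with terms for adipocytes and for libraries without Y-linked transcripts, a fit added after the data were seen. Leaving out 1 library gave 508 (EKO WD replicate 1) to 1039. The diet effect passed in 1670 genes in EKO with the compared groups alone and in 1411 (without EKO WD replicate 1) to 2772 with 1 library left out. In WT it passed in 0 genes with the compared groups alone (1254 at an unadjusted p below 0.05 with limma), 457 with the brown fat term, 11 with 4 tissue terms, 584 with the adipocyte and Y terms, and 15 to 349 with 1 library left out (15 without WT WD replicate 2, 19 without WT WD replicate 1, 47 without WT chow replicate 3, 349 without WT WD replicate 3). The 6-week interaction passed in 5 genes with the brown fat term, 4 with brown fat and skeletal muscle terms, and 0 to 1 with 1 library left out. The difference between durations passed in 349 genes with the compared groups alone, 1714 with the brown fat term, 1525 with brown fat and skeletal muscle terms, 2567 with the adipocyte and Y terms and 342 to 980 with 1 library left out. The cause of these shifts was not tested. With the replicate number as a block, 925 genes had an interaction at 22 weeks. Same-numbered libraries correlated at -0.22 to 0.616 over 6 pairs of groups and above 0.1 throughout in 2 of them. These were EKO chow with WT WD (0.446, 0.616 and 0.551) and EKO WD with WT chow (0.325, 0.41 and 0.152). The groups of each such pair enter the interaction with the same sign. The main fit did not pair libraries by number. The block is a term per replicate number common to all groups, so it cannot capture deviations shared by some groups only. Whether such deviations widen the error of the interaction was not tested. Depth limits low genes such as Il6, Mmp13 and Cemip.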

Other observations

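Some of the smallest p-values of the interaction belonged to genes outside the lists, chosen after their values were seen. Fnip2, whose product works with folliculin in nutrient signalling at the lysosome, measured 174, 102 and 129 in EKO WD and 31.3, 30.6 and 29.6 in EKO chow, against 28.1, 25.4 and 28.2 in WT WD and 33.9, 31.2 and 30.1 in WT chow. The EKO WD libraries stood apart and the other 9 lay close together, with an interaction of 2.29 ± 0.26 (SE, adjusted p = 1.6e-05). Cd44, the cell surface receptor for hyaluronan, measured 310.5, 187 and 220.3 in EKO WD and 51.8, 40.2 and 35.7 in EKO chow, against 33.01, 37.4 and 25.4 in WT WD and 38.8, 25.3 and 28.4 in WT chow, with 2.39 ± 0.33 (SE, adjusted p = 0.00018). Tpm4, a tropomyosin that binds actin filaments outside the contractile apparatus, measured 513, 358 and 420.4 in EKO WD and 170, 181 and 169 in EKO chow, against 184, 182 and 184 in WT WD and 264, 234 and 196 in WT chow. Its interaction was 1.61 ± 0.19 (SE, adjusted p = 2.4e-05), and all 3 calls were kept in every alternative and omission run.

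Genes of the Arp2/3 complex, which starts branched actin filaments, were looked up after Actr2 was seen. Of 9 measured, 6 had a positive interaction past the test, against 4.99% of all genes. The WD effect in WT passed in 0 of the 9, which is near its share of 1.36% over all genes. Actr2 measured 369, 284 and 294 in EKO WD and 146, 158 and 137 in EKO chow, against 171, 173 and 178 in WT WD and 194, 186 and 164 in WT chow, with an interaction of 1.15 ± 0.16 (SE, adjusted p = 0.0002). Actr3 had 1.11 ± 0.16 (SE, adjusted p = 0.0002), Arpc5 1.11 ± 0.16 (SE, adjusted p = 0.00023), Arpc4 0.84 ± 0.15 (SE, adjusted p = 0.00084), Arpc3 0.63 ± 0.14 (SE, adjusted p = 0.0068) and Arpc1b 0.91 ± 0.24 (SE, adjusted p = 0.022). The call of Arpc1b was lost without any of 5 single libraries, and those of Arpc3 and Arpc1b in the fit of the compared groups alone. Of the paralog pair Arpc1a and Arpc1b, the widely expressed Arpc1a measured 82.1, 80.96 and 90.7 in EKO WD and 100.1, 101 and 103 in EKO chow, against 80.9, 71.1 and 75.8 in WT WD and 84.2, 109 and 89.7 in WT chow, with 0.04 ± 0.16 (SE, adjusted p = 0.92). The list was chosen on these libraries and is no independent evidence of its direction.

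Grem1, which binds and blocks BMP proteins, was the 1 positive call among 13 genes listed as hedgehog and Wnt pathway antagonists (1 negative, median 0.06). That count is near the 4.99% of all genes with a positive interaction. Grem1 had 2.52 ± 0.62 (SE, adjusted p = 0.013), a call lost without EKO WD replicate 1, at a pseudocount of 0.1 and with the 4 tissue terms. Endothelial genes had 0 of 15 past the test (2 unadjusted) with 13 estimates above 0 and a median of 0.43. Heat shock chaperones had 0 of 14 (0 unadjusted, median 0.43), circadian clock genes 0 of 15 (2 unadjusted, median -0.19) and immediate-early genes 0 of 20 (2 unadjusted, median 0.21). Brown adipocyte genes had 0 of 11 (1 unadjusted, median -0.52), nerve genes 0 of 15 (0 unadjusted, median -0.02) and mesothelial genes 0 of 8 (1 unadjusted, median -0.62). With the adipocyte and Y terms 3 brown adipocyte genes passed upward and 1 downward, with a median of 0.17, and with the brown fat term 2 passed downward.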
